A study of Bos taurus with 147 samples.

Results

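Longissimus dorsi muscle of Japanese Black and Holstein cattle was compared at the time point labelled T1, one of 3 (T1, T2 and T3), on 4 cDNA microarrays. On every array the 2 breeds met, one in Cy5 and the other in Cy3. Japanese Black was in Cy5 on replicates 2 and 4 and in Cy3 on replicates 1 and 3, with Holstein in the other channel. The 4 arrays were taken by these labels from 147 arrays of the series, and the same breeds were compared on 4 arrays at T2 and on 4 at T3. The labels give the tissue as Longissimus dorsi muscle and the material as total RNA. The sources used here give neither the age, sex, feeding or number of the animals, nor whether the 4 arrays carried RNA of separate animals, pools or repeats of the same extracts, so that p-values measure the spread between arrays, which may be technical.

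Japanese Black cattle are known for the fat deposited between the fibres of their muscles, and Holstein is a dairy breed with leaner muscle. The fat between muscle fibres is held in adipocytes, which store triglyceride in a droplet coated by perilipins, carry fatty acids in the cytosol on fatty acid-binding proteins, make fatty acids from acetyl units and secrete hormones such as adiponectin. Muscle fibres themselves burn fatty acids or glucose, and the choice is set in part by the pyruvate dehydrogenase kinases. In tissue RNA, more cells of a type and more RNA per cell of that type cannot be told apart.

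The deposited values are log2 ratios of Cy5 over Cy3. Here they were turned to Japanese Black over Holstein, so that a positive value means a higher level in Japanese Black muscle, and each array was centred on its median. The direction of the ratio is likely rather than stated: in another table of the series, CKM, the creatine kinase of muscle, had log2 ratios of 1.45 to 1.84 with newborn muscle in Cy5 and fetal muscle in Cy3, and of -1.43 to -0.04 with the dyes swapped. The array held 19200 spots, of which 4304 carried 1 gene name. These stood for 969 genes, and spots of a gene were averaged. Probes were printed in duplicate, and all 2242 adjacent pairs of annotated spots had the same sequence. Paired spots are thus copies of a probe, and counts of spots below include both copies. The 4 T1 arrays had values at 13066 to 16352 spots, and replicate 2 had the widest spread (median absolute deviation 1.309, against 0.504 to 0.639 on the other 3). A linear model (limma) was fitted to the 12 breed arrays of T1, T2 and T3, with a term for the breed difference at each time and a dye term, over 10991 features. These were 740 named genes and 10251 single spots without a gene name. The Benjamini-Hochberg adjustment covered all 10991 features, a feature was called at an adjusted p under 0.05, and log2 ratios carry the standard error (SE) of this fit.

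The dyes had a large effect on these arrays. After turning all arrays to Japanese Black over Holstein, the Spearman correlation over all spots was 0.49 between replicates 1 and 3 and 0.44 between replicates 2 and 4, which share their dye orientation. Between arrays of opposite orientation it was 0.04, -0.15, -0.43 and -0.52. For 6605 of the 10991 features (60.1%) the mean ratio had opposite signs in the 2 orientations at T1. The dye term passed the threshold for 1553 features (14.1%), of which 1142 were brighter in Cy5.

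**Figure D1:**
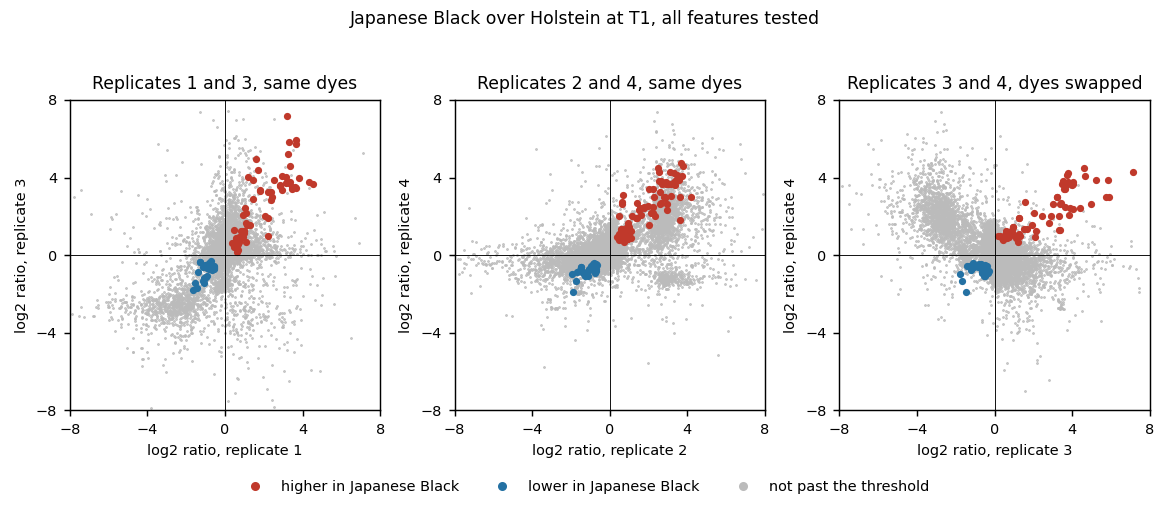
Log2 ratios of Japanese Black over Holstein at T1 on one array (x axis) against another (y axis) for each feature tested, in red and blue where the feature was past the threshold (adjusted p under 0.05, higher or lower in Japanese Black). Replicates of the same dye orientation follow a rising trend (left and middle), while replicates 3 and 4 with swapped dyes follow a falling one (right), and the coloured features, which were chosen on these arrays, lie in the quadrants of equal sign; 5, 17 and 6 features lie outside the axes, in the order of the panels.

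At T1, 113 of 10991 features (1.03%) differed between the breeds. Of these, 87 (0.792%) were higher and 26 (0.237%) were lower in Japanese Black muscle. They included 13 named genes, 10 higher and 3 lower. The higher ones were the fat-cell genes FABP4, PLIN1 and ADIPOQ, and EEF1B2, MGST1, RTN4, CLU, S100G, INO80B and HSPB8. The lower ones were GSTM3, PDK4 and DDIT4. At an unadjusted p under 0.05, 544 features (4.95%) were higher and 977 (8.89%) lower in Japanese Black muscle. The calls rest on a spread estimated over all 12 arrays: fitted to the 4 T1 arrays alone with a dye term, limma called 0 features, with 492 at an unadjusted p under 0.05. Without T1 replicate 1, 64 features passed, 62 higher and 2 lower. With all arrays scaled to one spread, 55 passed, 50 higher and 5 lower. With replicates 1 and 2, and 3 and 4, averaged, as for dye swaps of the same RNA, 27 features passed, all of them higher. FABP4, PLIN1, ADIPOQ, EEF1B2, MGST1 and RTN4 were the named genes among them, and S100G and INO80B could not be tested there.

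FABP4, the fatty acid-binding protein of adipocytes, had log2 ratios of 2.44, 2.58, 3.00 and 2.62 on replicates 1 to 4. All 4 arrays put it higher in Japanese Black muscle, in both dye orientations, by nearly the same amount in the mean over its spots. The fitted log2 ratio was 2.66 (SE 0.13, limma adjusted p = 8.08e-06), a 6.33-fold higher level of this mean, which covers spots that differed in size. The median over the means of single spots was a log2 ratio of 3.18. FABP4 has 78 spots. Of 235 spot values on the T1 arrays, 207 (88.1%) were positive and 28 negative. The array medians over its spots lay between 2.80 and 3.91. Of the 71 spots with values on at least 2 of the arrays, 54 were positive wherever measured, 2 were negative wherever measured and 15 were mixed. More of its spots gave a value where Japanese Black was in Cy5 (69 and 68 on replicates 2 and 4) than where it was in Cy3 (54 and 44 on replicates 1 and 3).

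PLIN1, the perilipin that coats the lipid droplet of adipocytes, had ratios of 2.23, 2.02, 1.92 and 1.54 on replicates 1 to 4. The mean over its spots was higher in Japanese Black muscle on each array. The fitted log2 ratio of 1.93 (SE 0.15, limma adjusted p = 1.17e-04) stands for a 3.80-fold higher level of this mean. Its 4 spots disagreed in size, with 4.55, 4.05, 0.12 and -0.66 on replicate 2 and 2.58, 2.44, 0.45 and 0.71 on replicate 4. On replicate 3 only 2 of them gave a value, so that the array means cover unlike sets of spots. The call of PLIN1 was lost with 6 further arrays that compared times within a breed added to the fit (limma adjusted p = 0.114). ADIPOQ, which encodes the hormone adiponectin, had ratios of 2.53, 1.63, 3.86 and 2.06. Its fitted log2 ratio was 2.52 (SE 0.25, limma adjusted p = 4.55e-04), a 5.73-fold higher level. All 63 values of its 20 spots on the T1 arrays were positive, and it was higher where Japanese Black was in Cy3 (mean 3.19) than in Cy5 (mean 1.84). These means cover unlike sets of spots: 14 and 9 gave a value on replicates 1 and 3, and 20 each on replicates 2 and 4. FABP4, PLIN1 and ADIPOQ were the members past the threshold among 16 adipocyte markers that could be tested of 18 on the array. Of all features, 0.792% were called higher.

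Of the 16 adipocyte markers, 3 were called higher and 0 lower. Fitted ratios were positive for 10 and negative for 6, and at an unadjusted p under 0.05 the counts were 7 higher and 1 lower. Over all features these shares were 4.95% higher and 8.89% lower. This list, like the others, was chosen with earlier results of these data known. The median log2 ratio of the list was 0.58, against -0.10 over all features. THRSP, a regulator of lipogenic genes in liver and fat, had the largest fitted ratio of the list, 3.09 (SE 0.66, limma adjusted p = 0.0701), with ratios of 4.39, 4.47, -0.69 and 4.17 on replicates 1 to 4. A single array, replicate 3, stood apart: there 1 of its 8 spots gave a value, against 6, 8 and 6 spots on replicates 1, 2 and 4. That spot had no value on replicate 1. It had 1.63 and 1.13 on replicates 2 and 4, below the medians of 4.95 and 5.64 over the spots of these arrays. The share of the spot and of the array in the low value was not tested. Without replicate 3 the log2 ratio of THRSP was 4.27 (limma adjusted p = 1.49e-04), but leaving out the array that disagreed favours a call. THRSP passed in 4 of 20 alternative settings of the processing. ADIRF, the adipogenesis regulatory factor, had ratios of 1.49, 3.74, 2.81 and 0.42 (fitted 2.11, limma adjusted p = 0.0964). It had 2.80 without replicate 4, its lowest array (limma adjusted p = 0.0213), and passed in 2 of 20 alternative settings. The spots of ADIRF on replicate 3 ran from -2.28 to 9.28.

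None of the other adipocyte markers passed the threshold. FABP5, a fatty acid-binding protein shared with epithelia, had ratios of 0.53, 0.95, 2.36 and 0.62 (limma adjusted p = 0.209). LPL, the lipase that releases fatty acids from circulating lipoproteins, had 0.70, 0.80, -0.16 and 0.97 (limma adjusted p = 0.203). PLIN2, the perilipin of small droplets in many cell types, had 2.16, 1.97 and 2.08 on replicates 1, 2 and 4 and -3.21 on replicate 3. LPL and PLIN2 each passed in 1 of 20 alternative settings, with every spot a feature. By their middle spots they had 1.00 and 0.92 there (limma adjusted p = 0.00104 and 0.0327). LEP, which encodes leptin, and CFD, the adipocyte complement factor adipsin, changed sign with the dye. LEP had 2.10 and 1.75 with Japanese Black in Cy5 and -2.42 and -2.47 with Japanese Black in Cy3, and CFD had 2.83 and 2.16 against -2.41 and -2.60, so that their fitted ratios were -0.26 and -0.01. Of the remaining markers, CD36, RBP4, AQP7, CAV1, CAVIN1 and CIDEC had fitted log2 ratios of -0.79 to 0.58, none of them past the threshold.

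**Figure D2:**
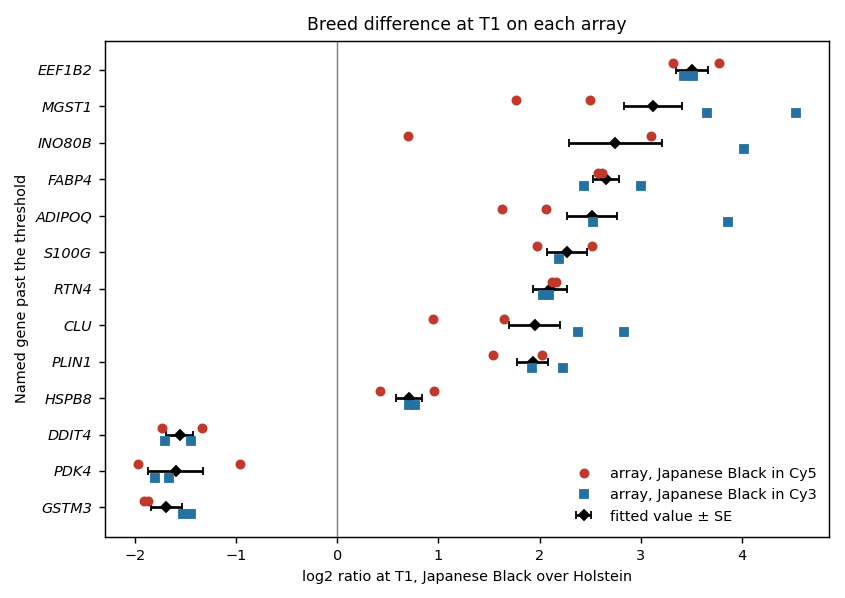
Log2 ratios at T1 (x axis) of the 13 named genes past the threshold (y axis), with red circles for arrays with Japanese Black in Cy5, blue squares for arrays with Japanese Black in Cy3 and black diamonds for the fitted value with its SE. All points of the 10 upper genes lie above 0 and all points of the 3 lower genes lie below 0, and MGST1, ADIPOQ and CLU have their squares to the right of their circles.

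Genes listed as enzymes and regulators of fat synthesis did not pass the threshold in the fit to the 12 breed arrays. The list was broad, and some members, such as PCK2, ALDH1A1, SREBF2 and FDFT1, do not serve fatty acid synthesis alone. Of 15 genes of this list on the array 12 could be tested, with 0 called, 10 positive and 2 negative fitted ratios and a median log2 ratio of 1.16. At an unadjusted p under 0.05, 4.95% of all features were higher and 8.89% lower, and of this list 6 were higher and 0 lower. These were IDH1, the cytosolic isocitrate dehydrogenase that supplies NADPH (2.59, 1.26, 0.37 and 1.42 on replicates 1 to 4), PCK2, the mitochondrial phosphoenolpyruvate carboxykinase (1.59, 1.07 and 0.64 on replicates 1, 2 and 4), ELOVL5, a fatty acid elongase, ACLY, which makes cytosolic acetyl-CoA, DGAT2, which makes triglyceride, and SREBF1, the transcription factor of lipogenic genes. Their fitted log2 ratios were 1.41, 1.23, 1.61, 2.19, 0.71 and 1.03 in that order, with limma adjusted p of 0.115 to 0.242. ELOVL5 passed without replicate 2 (2.27, limma adjusted p = 0.017), its sole pass in 20 alternative settings of the processing. IDH1 and SREBF1 also passed in 1 of 20 each, with every spot a feature. By their middle spots they had 2.03 and 1.31 there (limma adjusted p = 0.0168 and 0.00522). FASN, the fatty acid synthase, and ACACA, the acetyl-CoA carboxylase, followed the dye: FASN had 2.48 and 1.33 with Japanese Black in Cy5 against -2.75 and -2.98 with Japanese Black in Cy3, and ACACA had 3.05 and 2.22 against -2.30 and -4.88. Their fitted ratios were -0.48 and -0.48, and no breed difference was detectable for them. SREBF2, ALDH1A1, FDFT1 and GPD1 had fitted ratios of 0.81 to 1.77 with limma adjusted p of 0.427 to 0.616.

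PDK4, the kinase that switches off pyruvate dehydrogenase and so spares glucose while fatty acids are burned, was lower in Japanese Black muscle. Its ratios were -1.66, -1.97, -1.80 and -0.96 on replicates 1 to 4, and all 16 values of its 4 spots were negative. The fitted log2 ratio was -1.60 (SE 0.27, limma adjusted p = 0.0266), a 3.02-fold lower level in Japanese Black muscle. The call of PDK4 was lost without replicate 1, 2 or 3 (limma adjusted p = 0.169, 0.104 and 0.0997). It was the member called among 11 genes of fatty acid oxidation that could be tested of 13 on the array, against 0.237% of all features called lower. The median of that list was 0.09, with 6 positive and 5 negative ratios. ACADVL and ACADS, acyl-CoA dehydrogenases, and the uncoupling proteins UCP2 and UCP3 had positive ratios wherever Japanese Black was in Cy5, and negative ones in Cy3 except for ACADVL on replicate 1 (0.83). The fitted ratios of ETFB, DECR1, ECI2, HADHB, SLC25A20 and PHYH were 1.76, 0.09, 0.16, -0.01, -1.23 and -0.43, none of them past the threshold.

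**Figure D3:**
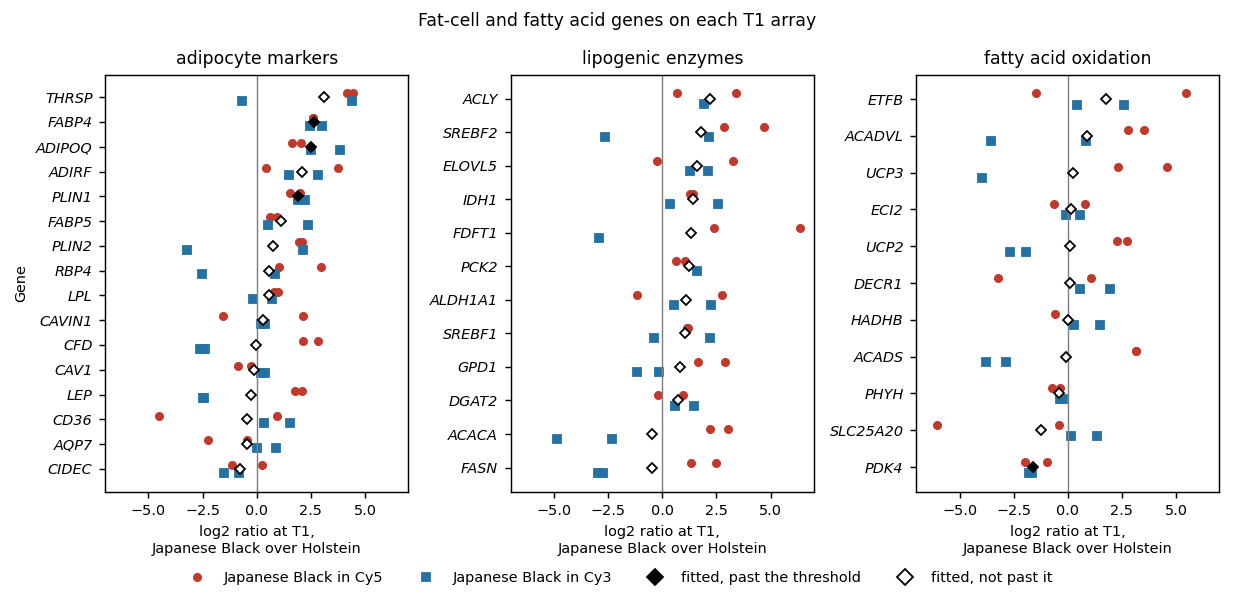
Log2 ratios of Japanese Black over Holstein at T1 (x axis) for each tested gene (y axis) of 3 lists, with red circles for arrays with Japanese Black in Cy5, blue squares for arrays with Japanese Black in Cy3 and diamonds for the fitted value, filled where past the threshold. The points of FABP4, ADIPOQ, PLIN1 and PDK4 keep together on one side of 0, while the circles and squares of LEP, CFD, FASN, ACACA, UCP2 and ACADS stand on opposite sides of it.

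EEF1B2, a subunit of the factor that recharges elongation factor 1A with GTP during translation, had the largest fitted ratio of the called named genes. Its ratios were 3.43, 3.32, 3.52 and 3.77 on replicates 1 to 4. Its 2 spots, copies of the same probe, lay between 3.30 and 3.78 over the 4 arrays. The fitted log2 ratio was 3.51 (SE 0.16, limma adjusted p = 6.09e-06), an 11.4-fold higher level in Japanese Black muscle. None of the other 10 translation factors tested passed the threshold, and the median of the 11 was -0.23. EIF3M, a subunit of initiation factor 3, had -0.70 and EEF2, the elongation factor of translocation, -0.68 (limma adjusted p = 0.122 and 0.349). Of 49 ribosomal protein genes, all of them tested, 0 were called, 18 had a positive and 31 a negative ratio, and the median was -0.11. RPS7, of the small subunit, had ratios of 1.84, 1.12, 0.49 and 0.60 (fitted 1.01, limma adjusted p = 0.0581), and passed without replicate 3 (1.23, limma adjusted p = 0.0428). RPL14, of the large subunit, had 3.11, -1.45, 4.57 and 2.27 (fitted 2.13, limma adjusted p = 0.184), and passed without replicate 2 (3.20, limma adjusted p = 0.00139). The replicate left out was the lowest for each of these genes, which favours a call. RPS7 and RPL14 each passed in 3 of 20 alternative settings of the processing. RPL24 had -0.49 (limma adjusted p = 0.265).

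RTN4, a reticulon that shapes the tubules of the endoplasmic reticulum, had ratios of 2.09, 2.12, 2.03 and 2.16 on replicates 1 to 4, the closest values of the called genes. The fitted log2 ratio of the mean over its spots was 2.10 (SE 0.17, limma adjusted p = 1.10e-04). This mean covers spots that disagreed, and the annotation of part of them as RTN4 may be wrong, so that no fold is given for the gene. Of its 58 spots, 54 had values on at least 2 of the T1 arrays. Their means were above 2 for 29 spots, below 1 for 20 and in between for 5. Of 204 spot values, 164 (80.4%) were positive and 40 negative. The median spot was at 2.77 to 3.24 on the 4 arrays, and the mean stands for neither group of spots. FABP4 had 52 spots above 2, 6 in between and 13 below 1 by the same limits, which were set after the values were seen, and ADIPOQ had 14, 6 and 0.

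**Figure D4:**
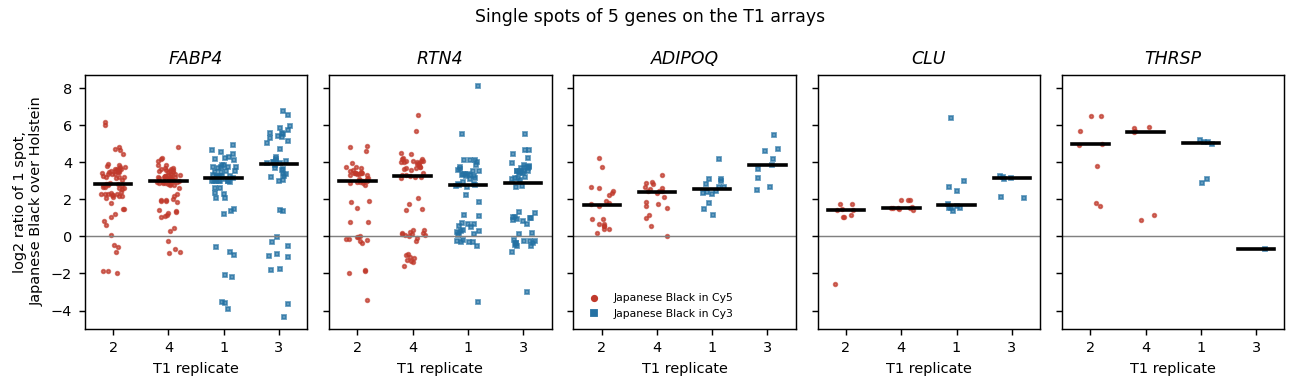
Log2 ratios of single spots (y axis) of 5 genes on the T1 arrays (x axis, by replicate), with red circles where Japanese Black was in Cy5, blue squares where it was in Cy3 and a black line at the median. The spots of ADIPOQ lie above 0 throughout, those of RTN4 form an upper group and one near 0 on each array, and THRSP has 1 spot with a value on replicate 3, at -0.69.

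MGST1, the microsomal glutathione S-transferase, was higher in Japanese Black muscle on all arrays, with ratios of 4.54, 1.77, 3.66 and 2.50 on replicates 1 to 4. Its fitted log2 ratio was 3.12 (SE 0.29, limma adjusted p = 2.80e-04), an 8.67-fold higher level. GSTM3, a cytosolic glutathione S-transferase of the mu class, moved the other way. Its ratios were -1.53, -1.87, -1.45 and -1.91, and the fitted log2 ratio was -1.69 (SE 0.15, limma adjusted p = 1.86e-04), a 3.23-fold lower level in Japanese Black muscle. All 20 values of the 6 GSTM3 spots were negative. The call of GSTM3 was lost with replicates 1 and 2, and 3 and 4, averaged (limma adjusted p = 0.0872). MGST1 was the member called among 6 selenoprotein and antioxidant genes tested of 8 on the array, against 0.792% of all features called higher. The median of this list was 0.01. The mitochondrial superoxide dismutase SOD2 had 0.28 (limma adjusted p = 0.562), and PRDX3, a mitochondrial peroxiredoxin, changed sign with the dye (fitted -0.52, limma adjusted p = 0.851).

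CLU, which encodes the secreted chaperone clusterin, had ratios of 2.38, 0.95, 2.83 and 1.65 on replicates 1 to 4, a fitted log2 ratio of 1.95 (SE 0.25, limma adjusted p = 0.00355). S100G, the vitamin D-dependent calcium-binding protein calbindin D9k, had 2.19, 1.97 and 2.52 on replicates 1, 2 and 4 and no value on replicate 3, with a fitted ratio of 2.27 (SE 0.20, limma adjusted p = 5.49e-04). Both were higher in Japanese Black muscle on each array that measured them. The call of CLU was lost with the same replicates averaged (limma adjusted p = 0.0897), and that of S100G with the 6 within-breed arrays added (limma adjusted p = 0.353). INO80B, a subunit of the INO80 chromatin remodeller, had 4.02, 0.70 and 3.10 on the same 3 arrays (fitted 2.75, SE 0.46, limma adjusted p = 0.0325). Its call was lost without replicate 1 or 4 (limma adjusted p = 0.347 and 0.151). DDIT4, an inhibitor of the growth kinase complex mTORC1 that is induced by stress, was lower in Japanese Black muscle, with -1.45, -1.73, -1.70 and -1.34. The fitted ratio of DDIT4 was -1.56 (SE 0.13, limma adjusted p = 2.89e-04), a 2.94-fold lower level, and its call was lost with these replicates averaged (limma adjusted p = 0.157) and with the within-breed arrays added (limma adjusted p = 0.316).

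HSPB8, a small heat shock protein that takes part in the disposal of damaged muscle proteins, had the smallest of the called ratios. It had 0.71, 0.42, 0.77 and 0.96 on replicates 1 to 4, a fitted log2 ratio of 0.71 (SE 0.13, limma adjusted p = 0.0415). The call was lost without replicate 1, 3 or 4 (limma adjusted p = 0.247, 0.126 and 0.151). It was the member called among 12 heat shock and chaperone genes tested of 13 on the array, against 0.792% of all features called higher. This list had 9 positive and 3 negative ratios and a median of 0.43. DNAJA1, a cochaperone of HSP70, had 1.40, -0.01, 1.50 and 1.13 (fitted 1.00, limma adjusted p = 0.0666). It passed in 4 of 20 alternative settings of the processing. CRYAB, the alpha-B crystallin of the Z-disc, had 0.50 (limma adjusted p = 0.21).

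Genes of the contractile apparatus did not pass the threshold. Of 34 sarcomere genes, all of them tested, 0 were called, 14 had a positive and 20 a negative ratio, and the median was -0.07. At an unadjusted p under 0.05, 3 were higher and 7 lower in Japanese Black muscle, against 4.95% and 8.89% of all features. Those of fast fibres had a median of -0.29 (9 genes, 2 positive and 7 negative), and those of slow fibres a median of 0.08 (9 genes, 6 positive and 3 negative). ACTN3, the alpha-actinin of fast fibres, had ratios of -0.63, -2.19, -0.13 and -1.46 (fitted -1.10, limma adjusted p = 0.0647). MYL3, the essential light chain of slow fibres and heart, had -0.82, -1.49, -0.36 and -0.95 (fitted -0.90, limma adjusted p = 0.0581). Both were negative on each array, and MYOM2, a myomesin of the M-band, likewise (fitted -0.78, limma adjusted p = 0.0883). ACTN3 and MYL3 each passed in 3 of 20 alternative settings of the processing, and MYOM2 in 2. The slow troponin T gene TNNT1 had 1.09 and CSRP3, a Z-disc protein, 0.23, with limma adjusted p of 0.446 and 0.614.

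Calcium handling and glycolysis were also without calls. Of 12 calcium handling genes on the array 8 were tested, 1 with a positive and 7 with a negative ratio, and the median was -0.64. ATP2A1, the calcium pump of fast fibres, had -1.95, -2.23, -0.68 and -1.23 on replicates 1 to 4 (fitted -1.52, limma adjusted p = 0.0715). It passed in 2 of 20 alternative settings of the processing. CASQ1, the calsequestrin of fast fibres, had -1.09 and SYPL2, a protein of the triad membranes, -1.23 (limma adjusted p = 0.205 and 0.234). Of 19 genes of glycolysis and glycogen 18 were tested, with 7 positive and 11 negative ratios and a median of -0.11. PKM, pyruvate kinase, had -1.96, -4.12, -0.35 and -1.13 (fitted -1.89, limma adjusted p = 0.15), the beta-enolase ENO3 had -0.66 (limma adjusted p = 0.216) and the phosphoglucomutase PGM1 -0.45 (limma adjusted p = 0.265). The replicate with the largest size was replicate 2 in ACTN3, MYL3, ATP2A1 and PKM.

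Mitochondrial energy genes gave no call. None of 9 complex I genes, 5 genes of complexes II and III and cytochrome c, 7 cytochrome c oxidase genes, 9 ATP synthase genes and 4 citric acid cycle genes tested was called, and the medians of these lists were 0.12, -0.15, -0.08, -0.13 and -0.14, against -0.10 over all features. No mitochondrially encoded gene carried a name on this array. COX5B had a ratio of -0.61 and ATP5MG, a subunit of the membrane part of ATP synthase, 0.87 (limma adjusted p = 0.21 and 0.203). NDUFB8 and NDUFB9 of complex I had 0.22 and 1.08, the highest of that list, and NDUFB11, its lowest, had 0.07, -3.87, 0.71 and -0.92 on replicates 1 to 4. UQCRC1, SDHD and SDHA of complexes II and III had -0.65, -0.37 and -0.07, and COX5A and COX7C had -0.28 and -0.17. ATP5F1C and ATP5F1D had -0.65 and -0.32, and MDH2, SUCLG1 and IDH3A of the citric acid cycle had -0.48, -0.19 and -0.08. Of the 4 phosphotransfer genes, CKM had 0.52, the adenylate kinase AK1 0.71 and the adenine nucleotide carrier SLC25A4 -0.10, with -0.13, -0.02, -0.18 and -0.09 on replicates 1 to 4.

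Genes of the matrix, of growth control and of protein breakdown gave 1 call, against 0.792% of all features called higher. It was that of the spots annotated as RTN4, which stood in the list of growth regulators. The median ratio was 0.18 for 6 collagens, 0.27 for 20 other matrix genes, 0.27 for 18 growth regulators and myogenic factors and 0.28 for 14 genes of proteolysis. COL3A1, the fibrillar collagen of the connective tissue sheaths, had 0.07, 0.84, -0.10 and 0.62 on replicates 1 to 4 (fitted 0.36, limma adjusted p = 0.326), while COL1A2 and COL5A3 had -0.50 and 1.01. Of the other matrix genes LUM, a small proteoglycan, had 1.56, TIMP1, an inhibitor of matrix proteases, 2.02, and FN1, fibronectin, 0.41 (limma adjusted p = 0.219, 0.22 and 0.347). MYOG, the transcription factor of muscle differentiation, had 2.25, 4.23 and 2.44 on replicates 1, 2 and 4 and no value on replicate 3 (fitted 3.05, SE 0.73, limma adjusted p = 0.122). ANKRD1, a stretch-responsive ankyrin repeat protein, had 0.89 (limma adjusted p = 0.137) and passed in 1 of 20 alternative settings. The proteasome subunit PSMB4 and the deubiquitinase USP19 had 0.28 and 0.86. Of 3 immediate early and stress genes, CEBPD, FOS and DUSP1 had 1.11, -0.38 and 0.10.

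Markers of other cells gave no call at T1. Of 6 markers of endothelium and mural cells on the array 5 were tested, of which 4 had a positive ratio and the median was 0.54, with mean ratios over the list of 0.65, 0.93, -0.83 and 1.28 on replicates 1 to 4. MCAM, an adhesion molecule of vessels, had 1.16, 0.84, 0.77 and 0.68 (fitted 0.86, limma adjusted p = 0.186). EGFL7, EMCN, ACTA2 and CNN1 had 0.80, 0.02, -0.03 and 0.54. The 3 immune markers tested of 5 on the array, CD74, C1QA and CTSS, had 1.05, 0.25 and 1.35, and their list mean was 1.89, 2.77, 0.46 and -1.02 on replicates 1 to 4. No marker of blood, nerve, epidermis or cartilage in the lists used carried a gene name on this array. Muscle genes such as CKM and the troponins gave values on the arrays, but a ratio gives no level, so that the purity of the tissue could not be read from them. The part of vessels, immune cells and fat attached to the muscle in the differences above was not tested.

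Among the other named genes with a negative ratio and the smallest p, S100A1, a calcium-binding protein of striated muscle, had -0.84, CCDC88C, a regulator of Wnt signalling, -1.34 and SSR2, of the translocon of the endoplasmic reticulum, -1.10, each negative on all 4 arrays (limma adjusted p = 0.115, 0.0714 and 0.115). CCDC88C passed in 2 of 20 alternative settings of the processing. The other 100 features past the threshold were spots without a single gene name, 77 higher and 23 lower in Japanese Black muscle. They belonged to 61 probes, 45 higher and 16 lower, and both spots of the probe passed in 39. Their log2 ratios were between -1.09 and 5.41. The higher spot with the smallest p had 3.80, 3.38, 3.98 and 3.63 on replicates 1 to 4 (fitted 3.70, limma adjusted p = 6.09e-06) and the next 3.65, 3.00, 3.47 and 3.69. The lower ones with the smallest p had -1.10, -1.05, -1.20 and -0.73 (fitted -1.02, limma adjusted p = 0.0181), and -1.07, -1.06, -1.23 and -0.77.

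The breed difference at T1 was set against that at T2 and T3, each measured on 4 other arrays. It differed from that at T2 for 64 features (0.582%), 60 of them more positive at T1, and from that at T3 for 49 features (0.446%), 43 of them more positive at T1. Both contrasts use the same T1 arrays. With replicates 1 and 2, and 3 and 4, averaged, limma called 0 features in either contrast (461 and 439 at an unadjusted p under 0.05), so that no difference between times given here passed under that setting. With arrays scaled to one spread, 21 features were called for T1 minus T2 and 0 for T1 minus T3 (1267 at an unadjusted p under 0.05). Of the 87 features higher in Japanese Black muscle at T1, 43 were more positive than at T2 by this test and 43 more positive than at T3. Their median log2 ratio was 2.56 at T1, 0.20 at T2 and 0.44 at T3, where the T1 value is the one that chose them. Of the 26 features lower at T1, 1 differed from T2 and 2 from T3, with medians of -0.93, -0.29 and -0.68 at the 3 times.

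For the 3 fat-cell genes called at T1, which their T1 values chose, the breed differences were smaller at T2 and T3. The median log2 ratio of all 16 adipocyte markers tested was 0.58 at T1, -0.47 at T2 and 0.32 at T3. FABP4 had ratios of 0.11, -0.06, 0.14 and 0.27 on replicates 1 to 4 at T2 and of 0.26, 0.08, 0.23 and 0.46 at T3, all below the lowest T1 value. The T1 ratio exceeded that at T2 by 2.55 (SE 0.19, limma adjusted p = 2.80e-04) and that at T3 by 2.40 (limma adjusted p = 5.13e-04). PLIN1 had -0.76, -0.63, -0.02 and -0.70 at T2 and 0.30, 0.44, 0.47 and 0.13 at T3, with T1 higher by 2.45 and 1.59 (limma adjusted p = 4.68e-04 and 0.00946). ADIPOQ was on the side of Holstein at T2, with -0.41, -0.93, -0.50 and -1.72 (fitted -0.89, limma adjusted p = 0.0975), and near 0 at T3, with 0.03, -0.14, 0.27 and -0.04. Its T1 ratio exceeded these by 3.41 and 2.49 (limma adjusted p = 0.00108 and 0.0102).

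EEF1B2, MGST1, CLU, S100G and the mean over the RTN4 spots followed the same course on these arrays. EEF1B2 had fitted ratios of 0.28 at T2 and 0.55 at T3, RTN4 of 0.26 and 0.39 and MGST1 of 0.05 and 0.66, and none of these passed the threshold. CLU had -0.91 at T2 and -0.88 at T3 and S100G -0.59 and -0.31, again not past it. The excess of T1 over T2 passed for all 5 genes (limma adjusted p = 2.80e-04 to 0.00531), as did that over T3 (limma adjusted p = 5.13e-04 to 0.0336). HSPB8 and INO80B did not differ past the threshold between T1 and T2 or T3.

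The 3 genes lower at T1 each took another course. PDK4 had 0.38, 0.72, 2.04 and 0.76 at T2 and 0.69, 0.46, 1.11 and 0.14 at T3, opposite in sign to all T1 arrays. Its T1 minus T2 difference was -2.57 and its T1 minus T3 difference -2.20 (limma adjusted p = 0.014 and 0.0476). DDIT4 was lower in Japanese Black muscle at T2 as well, with -1.21, -1.50 and -1.34 on replicates 1 to 3 (fitted -1.35, limma adjusted p = 0.00676), and had a fitted ratio of 0.05 at T3. Its T1 minus T3 difference was -1.61 (limma adjusted p = 0.00542). GSTM3 was lower in Japanese Black muscle at all 3 times, with fitted ratios of -1.69 at T1, -1.16 at T2 and -1.75 at T3 (limma adjusted p = 1.86e-04, 0.00882 and 0.00413), and T1 did not differ past the threshold from T2 or T3. Of all features, 1.12% were called at T2 and 0.792% at T3.

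**Figure D5:**
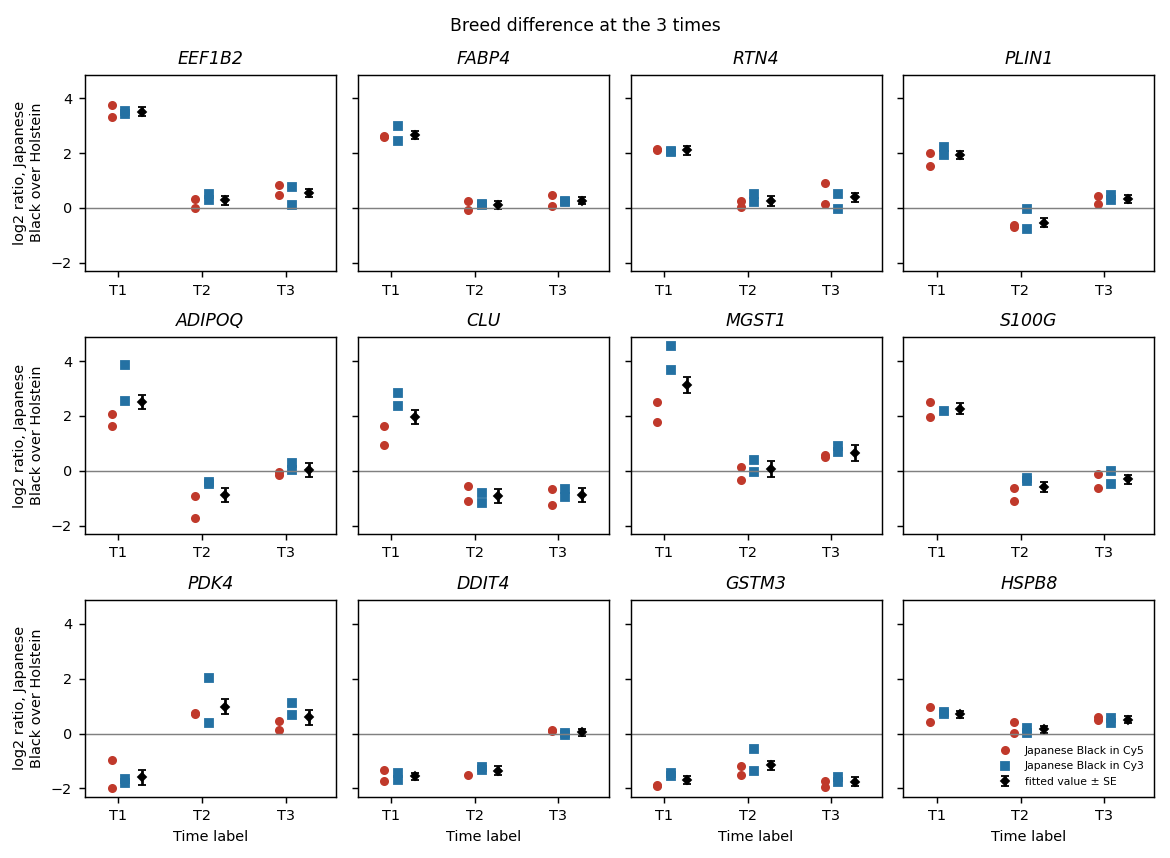
Log2 ratios of Japanese Black over Holstein (y axis) at T1, T2 and T3 (x axis) for 12 genes called at T1, with red circles for arrays with Japanese Black in Cy5, blue squares for arrays with Japanese Black in Cy3 and black diamonds for the fitted value with its SE. FABP4, EEF1B2, RTN4, PLIN1, ADIPOQ, CLU, MGST1 and S100G are high at T1 alone, GSTM3 is below 0 at all 3 times, DDIT4 at T1 and T2, and PDK4 at T1 alone.

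For COL1A1 and PFDN5 the difference between T1 and T2 came with a low value at T2. COL1A1, the main fibrillar collagen, had fitted ratios of 0.01 at T1 and -2.43 at T2, and PFDN5, a subunit of the chaperone prefoldin, of -0.67 and -3.49. The T1 minus T2 differences were 2.44 and 2.82 (limma adjusted p = 0.00325 and 4.68e-04), and at T3 the ratios were -0.04 and -0.63. COL1A1 was singled out after its values were seen. In the other direction MAP3K15, SMYD2, RILPL1 and LMOD3 had the smallest p of the named genes after PDK4 for T1 minus T2, and PFKFB3, CREG1 and MYL2 after DDIT4 and PDK4 for T1 minus T3, none of them past the threshold (limma adjusted p = 0.123 to 0.176, and 0.0848 to 0.306).

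Arrays that compared times within a breed, 1 per comparison and without a dye swap, crossed these values, and they did not all go the same way. The T1 minus T2 ratio within Japanese Black less that within Holstein could be formed for 10 of the 11 named genes called for T1 minus T2, and had the sign of the breed arrays in 6 and the opposite sign in 4. For T1 minus T3 it could be formed for 8 of 10, with the same sign in 7 and the opposite sign in 1. EEF1B2 was opposite in both: its T1 over T2 ratio was -1.47 within Japanese Black and -0.55 within Holstein, a difference of -0.92 against 3.23 on the breed arrays, and for T3 the difference was -2.33 against 2.96. For T1 minus T2, PLIN1, S100G and PFDN5 also ran opposite, with differences of -1.64, -1.17 and -2.43 against 2.45, 2.86 and 2.82 on the breed arrays. All these T1 minus T2 values use the array of T2 against T1 within Japanese Black. On it 1089 spots were at the upper limit of the ratios, against 65 to 128 on the T1 breed arrays. Its paired spots differed by a median of 0.647, against 0.089 to 0.142 there. The part of array quality in the opposite signs was not tested.

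FABP4 had the same sign in both, with a T1 over T2 ratio of -0.56 within Japanese Black and -1.43 within Holstein, and the differences between breeds were 0.87 for T1 minus T2 and 1.08 for T1 minus T3, against 2.55 and 2.40 on the breed arrays. ADIPOQ had 0.68 and 1.06, CLU 1.83 and 2.01, the RTN4 spots 1.50 and 1.81 and PDK4 -0.44 and -2.41, each with the sign of the breed arrays. These values rest on 1 array per breed and have no replicate check. With these 6 arrays added to the fit, 74 features were called at T1, of which 65 were also called from the breed arrays alone. Of the 74, 13 were named genes, but not the same ones as from the breed arrays alone. PLIN1, S100G and DDIT4 lost the call (limma adjusted p = 0.114, 0.353 and 0.316). ATP2A1 and THRSP were among the genes that gained it (limma adjusted p = 0.0233 and 0.0165).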

How the data were processed

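The authors deposited one log2 ratio of Cy5 over Cy3 per spot and array for a bovine cDNA array. The steps by which the ratios of these breed arrays were made are not given in the sources used here. The ratios were not centred (T1 medians 0.022 to 0.532). Ratios at the table's cap (a log2 ratio of 16.61, 65 to 128 per T1 array) were taken as missing. Arrays were then centred on their medians, and ratios were signed as Japanese Black over Holstein from the dye labels. Of 19200 spots, 4304 had 1 gene name, 180 several and 14716 none. Of the named ones, 4286 were matched to the reference table of gene names and 18 were not. There were 59 other columns of array values beside those used here, and 64 in a second deposited file that served only to check the direction. Features with values on at least 3 of 4 T1 arrays and 10 of 12 arrays were kept. Fits used limma 3.58.1 (R 4.3.3) with empirical Bayes moderation, after testing it on simulated data. Of 100 simulated breed differences of log2 size 1 at T1, 27 were called, and of 100 of log2 size 2, 57. A gene without a call may thus still differ. The simulated noise had the same spread on all arrays, unlike T1 replicate 2. The number of arrays limits the precision.

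Genes named are those past the threshold with one sign on every T1 array (up to 15 a direction, filled to 10 by smallest p), all tested members of the adipocyte, lipogenic and fatty acid oxidation lists and of the marker lists, the 3 members of each other list with the smallest p, and up to 5 a direction for T1 minus T2 and T1 minus T3. The members and lists were chosen with earlier results of these data known. No sequence is shown, since the tables used here hold none.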

Additional observations from a re-analysis of the deposited data

Results flagged for a closer look

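Of the 118 genes chosen by the naming rule, 100 had values on all 4 T1 arrays, and of these 7 had one array far from the other 3, where chance flags about 1 in 20. Replicate 3 stood apart for THRSP (-0.69, from 1 spot, against a median of 4.28) and PLIN2 (-3.21, against 2.02). Replicate 2 stood apart for CCDC88C (-2.27), ANKRD1 (1.33), RPL24 (-1.28) and LMOD3 (-1.09), and replicate 4 for SDHA (-0.69).

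The breed difference at T1 differed from that at T2 for 11 named genes and from that at T3 for 10 by a test of the difference itself (limma). For T1 minus T2 the log2 differences were 3.23 for EEF1B2, 2.55 for FABP4, 2.45 for PLIN1, 2.82 for PFDN5, 3.41 for ADIPOQ, 2.86 for S100G, 2.86 for CLU, 2.44 for COL1A1, 1.84 for the RTN4 spots, 3.07 for MGST1 and -2.57 for PDK4. For T1 minus T3 they were 2.96 for EEF1B2, 2.40 for FABP4, 2.57 for S100G, 2.83 for CLU, 1.59 for PLIN1, 1.71 for the RTN4 spots, 2.49 for ADIPOQ, 2.45 for MGST1, -1.61 for DDIT4 and -2.20 for PDK4.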

How the results depend on the processing

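The count of 113 features at T1 was 314 with every spot a feature, 55 with arrays scaled to one spread (50 higher and 5 lower, a share higher of 90.9% against 77%), 74 with 18 arrays, 27 with replicates 1 and 2, and 3 and 4, averaged, and 0 with the T1 arrays alone, with or without a dye term (492 and 345 at an unadjusted limma p under 0.05). With both spots of unnamed probes averaged it was 56, and with a dye term at each time 59, both chosen after seeing the data. Without each replicate in turn it was 64 to 98. T1 minus T2 called 64 features, and 282 with every spot a feature, 21 with arrays scaled, 33 with spots averaged and 0 with replicates averaged (461 at an unadjusted limma p under 0.05), and 52 to 74 without each replicate. T1 minus T3 called 49, and 176, 0 (1267 unadjusted), 27 and 0 (439 unadjusted) under the same 4 alternatives, and 35 to 99 without each replicate, the highest without replicate 4. The dye term called 1553, and 434 with values on all 12 arrays, 524 with the T1 arrays alone, 641 with 18 arrays, 933 with spots averaged and 528 to 1174 without each replicate (942 without replicate 2 and 698 without replicate 4).

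With a replicate block, 101 features passed at T1, 66 for T1 minus T2, 41 for T1 minus T3 and 1062 for the dye. The numbers were not taken to pair arrays, since residuals of same-numbered arrays correlated between -0.408 and 0.406. No named value reversed its sign past the threshold. Of the 13 called genes, 5 (EEF1B2, FABP4, ADIPOQ, RTN4 and MGST1) stayed past the threshold under all 18 alternatives other than the T1 arrays alone, where none did, and 10 stayed without each replicate in turn. DDIT4, PLIN1 and S100G lost the call with 18 arrays (limma adjusted p = 0.316, 0.114 and 0.353). The 6 within-breed arrays added there differed more between paired spots than the breed arrays. GSTM3, CLU, DDIT4, PDK4 and HSPB8 lost it with replicates averaged (limma adjusted p = 0.0872, 0.0897, 0.157, 0.233 and 0.523), and INO80B, HSPB8 and PDK4 with arrays scaled (limma adjusted p = 0.0824, 0.146 and 0.0888). The causes were not tested.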
